A study of Mus musculus with 9 samples.

Results

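The transcripts of 10 enzymes of serine, glycine and folate one-carbon metabolism (Phgdh, Psat1, Psph, Shmt1, Shmt2, Mthfd1, Mthfd1l, Mthfd2, Aldh1l2 and Gldc) were compared between 2 genetically engineered mouse models (GEMMs) of osteosarcoma (OS). The enzymes were picked by gene symbol from the 55367 genes in the table of counts, and each of the 10 symbols was found once. RNA-Seq was performed on whole tumors, 4 of them p53-driven and 5 Myc-knockin. The p53-driven mice carried Col2.3-Cre and 1 floxed Trp53 allele (fl/+), with Cre expressed from an osteoblast-specific promoter. The Myc-knockin mice carried the Cre and the floxed Trp53 allele as well, and in addition a Lox-Stop-Lox (LSL) c-Myc allele with the T58A substitution. Both models therefore shared the Trp53 allele and the Cre, and by genotype the c-Myc allele separated them. The tumors arose spontaneously, and the labels give no age, sex or strain. The paper reports an earlier median time to sacrifice for Myc-knockin than for p53-driven mice. Age at collection may therefore have differed with genotype, and the effects of age and genotype cannot be told apart here. Each tumor counted as 1 sample, and nothing says which tumors shared a litter.

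One-carbon metabolism moves single carbon units from serine and glycine onto folate carriers, which pass them on for the synthesis of purines, thymidylate and methionine. Serine is made from a glycolytic intermediate by PHGDH, PSAT1 and PSPH in turn. SHMT1 in the cytosol and SHMT2 in mitochondria split serine into glycine and a folate-bound carbon unit, and parallel sets of folate enzymes then interconvert the carbon units in each compartment. Many of these genes are known as targets of MYC or of ATF4 in proliferating cells.

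The depth and makeup of the libraries varied. Total counts ranged from 2716322 to 17073285 per tumor. A set of 12 genes, called satellite genes here, was picked as far higher in F187, M351, M408 and M9 than in every other library. The set was picked by level and not from a repeat annotation, so its excess in these libraries follows from the choice. It took 23.2% to 81.0% of the counts in 1 p53-driven tumor (F187) and in the Myc-knockin tumors M351, M408 and M9. M9 held 671790 counts outside the set. The RNA Rn7sk, which is not polyadenylated, had at least 8858 CPM in 7 libraries and 5.33 and 9.32 CPM in M624 and M664 (CPM are counts scaled to a common library size, here over the counts outside the satellite genes). The globin transcript Hba-a1 had 0 reads in the same 7 libraries and 2684 and 8995 reads in M624 and M664. The paper describes oligo-dT capture of mRNA and gives no difference in preparation between the tumors. The cause of this split was not tested. M624 and M664 were both Myc-knockin, so each comparison was also made over the other 7 tumors. The columns of the table carry names that the labels do not give. F187, F325, F331, F368, M408 and M624 were placed by the paper's supporting data, which list these names under p53-driven or Myc-knockin cell lines. M351, M9 and M664 were placed in the Myc-knockin group by their letter alone. Levels are given below as TMM-normalized CPM, in which counts are scaled by edgeR's trimmed mean of M values, and 3 counts corresponded to between 0.114 and 2.39 CPM. Markers of the osteoblast lineage were detected in every tumor, with a summed level of 46630 to 96819 CPM in p53-driven and 2457 to 25848 CPM in Myc-knockin tumors, and Bglap was the only 1 of the 8 with no count in a library (M408). Myc itself had 46.2, 43.5, 67.1 and 60.4 CPM in the p53-driven tumors and 269.6, 520.3, 144, 1045 and 905 CPM in M351, M408, M9, M624 and M664. It was higher in each Myc-knockin tumor than in each p53-driven one (log2 fold change 3.41 ± 0.59 SE, adjusted p = 0.0217 by edgeR), and gene counts do not separate the T58A allele from the endogenous one. Trp53 did not pass the test (log2 fold change 0.58, adjusted p = 0.569), and counts over the whole gene do not show the floxed exons.

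The sequences just upstream of Shmt1, Shmt2 and Mthfd1 are shown because the first and the last of them were called higher in Myc-knockin tumors while Shmt2, the mitochondrial partner of Shmt1, was not. Each is the 250 bases before the RefSeq start on GRCm38.p6, read along the gene's strand from 5′ to 3′. Capitals mark the GC box GGGCGG and the CCAAT box on either strand, where 2 GC boxes may overlap.
Shmt1 (chr11:60811266-60811515, minus strand): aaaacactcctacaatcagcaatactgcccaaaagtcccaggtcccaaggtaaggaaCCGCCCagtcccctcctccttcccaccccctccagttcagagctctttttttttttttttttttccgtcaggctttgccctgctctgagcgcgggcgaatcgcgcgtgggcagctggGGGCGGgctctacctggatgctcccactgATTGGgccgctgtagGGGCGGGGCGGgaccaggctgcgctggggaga
Shmt2 (chr10:127522445-127522694, minus strand): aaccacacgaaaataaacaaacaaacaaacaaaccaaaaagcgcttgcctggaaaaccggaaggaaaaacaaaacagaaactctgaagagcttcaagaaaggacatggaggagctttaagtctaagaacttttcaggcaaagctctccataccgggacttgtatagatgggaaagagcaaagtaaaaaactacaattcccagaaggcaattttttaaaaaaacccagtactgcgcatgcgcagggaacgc
Mthfd1 (chr12:76254982-76255231, plus strand): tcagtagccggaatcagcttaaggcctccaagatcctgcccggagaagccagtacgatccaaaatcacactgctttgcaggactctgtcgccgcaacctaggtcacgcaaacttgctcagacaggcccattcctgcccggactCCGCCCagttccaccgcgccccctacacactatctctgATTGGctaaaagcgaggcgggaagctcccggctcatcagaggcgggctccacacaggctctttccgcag

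The Shmt1 window held 4 GC boxes and 1 CCAAT box, the Mthfd1 window 1 of each, and the Shmt2 window neither. Over 32851 such windows of the same length, 32.7% held GGGCGG and 33.8% held CCAAT. The GC content was 60.0% for Shmt1, 59.2% for Mthfd1 and 40.8% for Shmt2, against a median of 52.4% over all windows. The MYC-type E-box CACGTG, searched on both strands, was in none of the windows of the 9 enzymes that had one (Aldh1l2 had none), and in 6.02% of all windows. Its variant CACGCG was found upstream of Psat1 and Shmt1, and in 7.62% of all windows. The ATF4-type element TGATGCAA was in 0 of the 9 and in 0.791% of all windows. A match describes the letters of these windows and no factor's binding. In the annotation the Mthfd1 window lies within an exon of the antisense noncoding gene Gm47525, the first 49 bases of the Shmt1 window lie in an exon of a noncoding Shmt1 transcript, and the Shmt2 window overlaps no exon.

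Of the 10 enzymes, 2 were called higher in Myc-knockin tumors (Shmt1 and Mthfd1) and 1 was called lower (Aldh1l2). Genes count as called where edgeR's quasi-likelihood fit gave a p under 0.05 after Benjamini-Hochberg adjustment over the 15365 genes tested, together with a change of more than 1.5 times. Over all genes tested, 2.26% were called higher and 3.00% lower. The other 7 enzymes were not called. The log2 fold change (Myc-knockin over p53-driven) was above 0 for 9 of the 10 and had a median of 1.38, against a median of 0.14 over all genes tested. Without M624 and M664 the median was 0.46, against 0.08 over all genes, and 2 enzymes were called higher and 0 lower, against 1.80% and 2.81% of 14308 genes. Shmt1 and Mthfd1 were the 2 called in both comparisons. For 3 enzymes (Shmt1, Mthfd1 and Gldc) every Myc-knockin tumor lay above every p53-driven tumor, and for Aldh1l2 every one lay below. Over all genes tested, 5.41% did not overlap in the higher direction and 7.54% in the lower. DESeq2 called 5 of the enzymes higher, namely Phgdh, Shmt1, Shmt2, Mthfd1 and Gldc, and Aldh1l2 lower, and it called 8.57% of all genes higher and 6.79% lower.

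**Figure D1:**
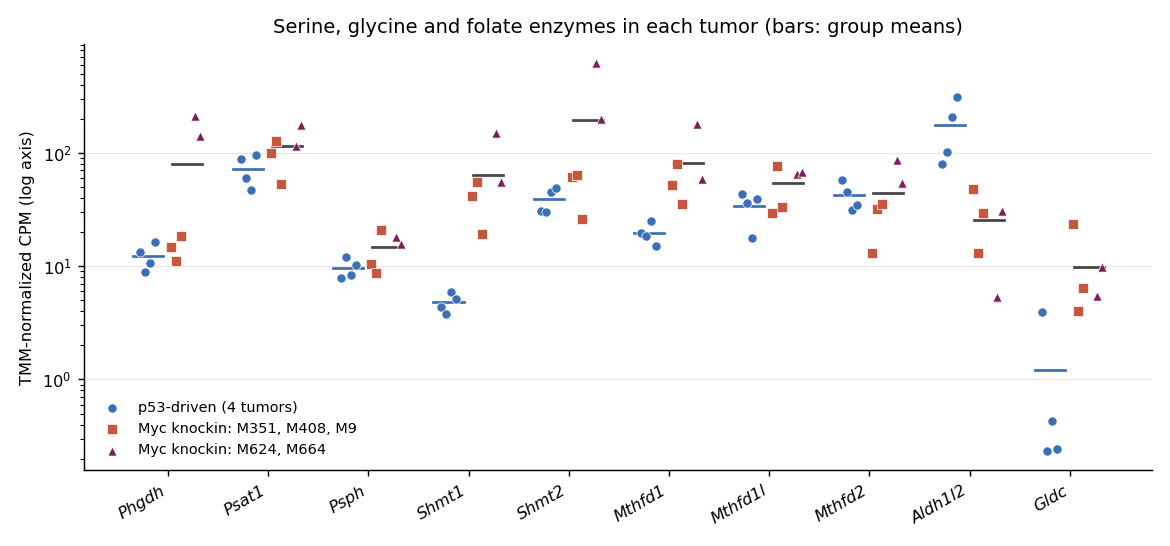
TMM-normalized CPM (log axis) of the 10 enzymes in each of the 4 p53-driven and 5 Myc-knockin tumors, 1 point per tumor, with a bar at each group's mean and separate symbols for M624 and M664. The groups do not overlap for Shmt1, Mthfd1, Aldh1l2 and Gldc, and for Phgdh only M624 (212 CPM) and M664 (141 CPM) lie far above the other 7 tumors, which span 8.95 to 18.3 CPM.

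**Figure D2:**
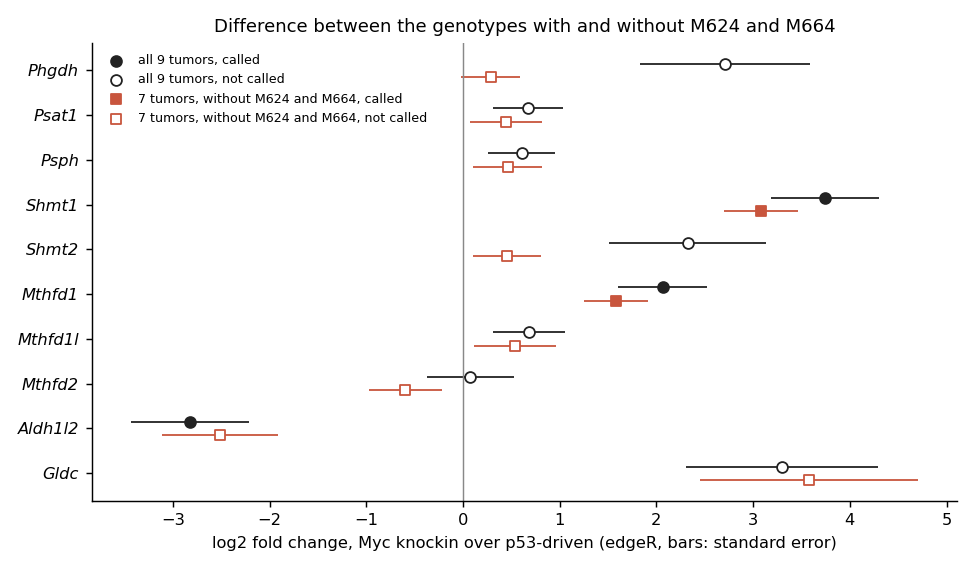
Log2 fold change of each enzyme, Myc-knockin over p53-driven, from edgeR over all 9 tumors (circles) and over the 7 tumors without M624 and M664 (squares), with bars for the standard error and filled symbols for genes called. Shmt1 and Mthfd1 are filled in both comparisons, Aldh1l2 only over 9 tumors, and Phgdh moves from 2.71 to 0.29.

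The serine synthesis enzymes (3 genes) were not called. Phgdh (ENSMUSG00000053398, chr3:98313170-98339990), which encodes the first enzyme of the pathway, had 13.4, 8.95, 10.6 and 16.4 CPM in F187, F325, F331 and F368, the p53-driven tumors. In the Myc-knockin group, M351, M408, M9, M624 and M664 had 14.8, 11.0, 18.3, 212 and 141 CPM. M624 and M664 thus stood apart, while the other 3 Myc-knockin tumors overlapped the p53-driven range. The log2 fold change was 2.71 ± 0.88 (SE, adjusted p = 0.0845 by edgeR) over 9 tumors and 0.29 ± 0.31 (adjusted p = 0.572) over 7. DESeq2 called it higher over 9 tumors (log2 fold change 2.73, adjusted p = 0.00906).

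The count of Phgdh is uncertain, because the genome holds 17 processed pseudogenes with at least 90% identity to it. The closest, Gm7901 (chr8:75711600-75713196), matched the transcript over 1597 bases at 98.7%. The pseudogenes together took 96, 258, 253 and 343 reads in the p53-driven tumors, where Phgdh took 34, 115, 122 and 135. In M351, M408 and M9 they took 65, 181 and 53 reads against 24, 60 and 23 on Phgdh. In all 7 of these tumors the pseudogenes drew 2.07 to 3.02 times as many reads as the gene. In M624 and M664 the order turned, with 2545 and 1319 reads on the pseudogenes against 5568 and 3265 on Phgdh, a ratio of 0.457 and 0.404. How reads that map to several places were counted is not given in the sources used here. Counting Phgdh and its pseudogenes together, an alternative added after seeing the data, gave 51.3, 29.0, 32.4 and 58.1 CPM in the p53-driven tumors and 54.8, 44.1, 60.5, 309 and 198 CPM in M351, M408, M9, M624 and M664. M624 and M664 remained above the other 7, and the log2 fold change was 1.65 ± 0.60 (adjusted p = 0.110 by edgeR) over 9 tumors and 0.37 ± 0.30 (adjusted p = 0.456) over 7.

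**Figure D3:**
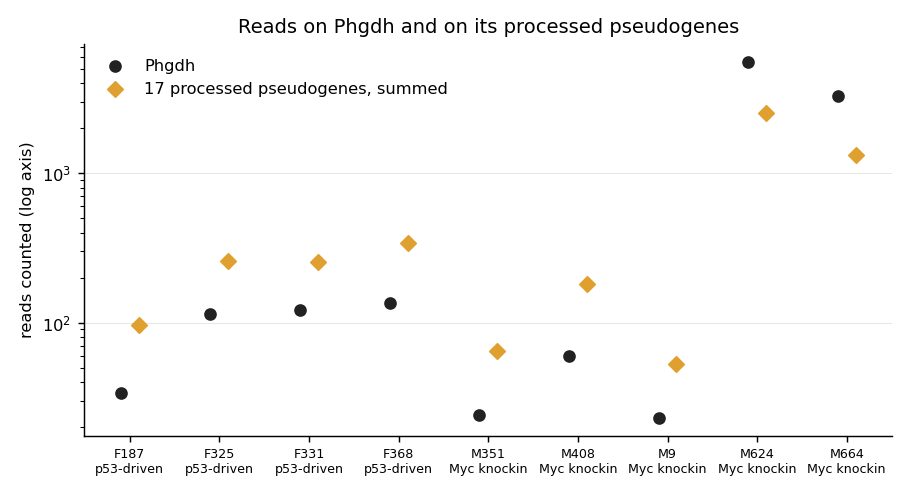
Reads counted on Phgdh (circles) and on its 17 processed pseudogenes together (diamonds) in each tumor, on a log axis. The pseudogenes lie above the gene in 7 tumors and below it in M624 and M664.

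Psat1 (ENSMUSG00000024640, chr19:15904678-15947337), the aminotransferase of the second step, had 88.1, 59.4, 46.5 and 95.1 CPM in p53-driven tumors and 100.3, 127, 52.6, 115 and 176 CPM in M351, M408, M9, M624 and M664. M9 lay within the p53-driven range and the other 4 Myc-knockin tumors above it. The log2 fold change was 0.67 ± 0.36 (adjusted p = 0.262 by edgeR), and 0.45 ± 0.37 without M624 and M664. Psph (ENSMUSG00000029446, chr5:129765558-129787449), the phosphatase that releases serine, had 7.90, 12.1, 8.30 and 10.2 CPM against 10.5, 8.61, 20.7, 18.1 and 15.8 CPM. The groups overlapped through M351 and M408, with a log2 fold change of 0.61 ± 0.35 (adjusted p = 0.288). Psph shares 452 exon bases with Cct6a on the opposite strand, which had 211 to 10877 reads. The library kit kept strand, but the strand setting of the counting is not given in the sources used here, so reads from such partners cannot be told apart. The same limit holds for Shmt1 with Smcr8 (184 shared bases), Shmt2 with Ndufa4l2 (32) and Mthfd1 with Gm47525 (37).

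Of the serine hydroxymethyltransferases, Shmt1 was called higher and Shmt2 was not. Shmt1 (ENSMUSG00000020534, chr11:60788104-60811718), the cytosolic enzyme, had 4.34, 3.81, 5.97 and 5.11 CPM in p53-driven tumors and 41.2, 55.3, 19.1, 149 and 55.6 CPM in M351, M408, M9, M624 and M664. The lowest Myc-knockin tumor, M9, was above the highest p53-driven tumor, F331. The Myc-knockin mean of 64.1 ± 49.8 CPM (SD, n = 5) was 13.3 times the p53-driven mean of 4.81 ± 0.94 CPM (SD, n = 4). The log2 fold change was 3.74 ± 0.56 (SE, adjusted p = 0.0175 by edgeR), and 3.08 ± 0.38 (adjusted p = 0.0241) without M624 and M664. Without the 4 libraries rich in satellite reads the log2 fold change was 4.37 (adjusted p = 0.00585), but the Myc-knockin tumors of that comparison were M624 and M664 alone, the libraries with little Rn7sk, so that genotype and library makeup cannot be told apart in it. The smallest counts were 11 reads in F187 and 24 reads in M9, and genomic background would give 2.74 and 4.77 reads there. After the expected background was subtracted, the p53-driven tumors had at most 5.96 CPM and the Myc-knockin tumors at least 15.3 CPM. The call was lost when F325, F331 or F368 was left out (adjusted p = 0.0647, 0.0640 and 0.0674), and the log2 fold change stayed between 3.23 and 3.97 in the 9 fits that each left out 1 tumor. Of all genes tested, 2 were called higher without F325, 0 without F331 and 0 without F368.

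Shmt2 (ENSMUSG00000025403, chr10:127517123-127522444), the mitochondrial enzyme, had 30.4, 30.2, 45.5 and 49.2 CPM in p53-driven tumors and 61.6, 63.7, 26.3, 615 and 201 CPM in M351, M408, M9, M624 and M664. M9 was the lowest of all 9 tumors, and M624 and M664 were the highest. The log2 fold change was 2.32 ± 0.81 (adjusted p = 0.10 by edgeR) over 9 tumors and 0.46 ± 0.35 (adjusted p = 0.426) over 7. Leaving out M9 alone brought it past the threshold (log2 fold change 2.60, adjusted p = 0.0449), and leaving out M624 alone took the log2 fold change to 1.27. Without M9, 6.03% of all genes tested were called higher.

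Of the 4 enzymes that interconvert folates, Mthfd1 was called higher and Aldh1l2 lower, and the other 2 were not called. Mthfd1 (ENSMUSG00000021048, chr12:76255298-76319803) encodes the trifunctional cytosolic enzyme that interconverts formate, formyl-, methenyl- and methylene-tetrahydrofolate. It had 19.7, 18.4, 24.8 and 15.1 CPM in p53-driven tumors and 51.7, 79.1, 35.1, 181 and 58.6 CPM in M351, M408, M9, M624 and M664, with no overlap between the groups. The mean was 19.5 ± 4.05 CPM (SD, n = 4) in p53-driven and 81.1 ± 58.1 CPM (SD, n = 5) in Myc-knockin tumors, and the log2 fold change was 2.07 ± 0.46 (SE, adjusted p = 0.0345 by edgeR). Without M624 and M664 it was 1.58 ± 0.33 (adjusted p = 0.0397). Without the 4 libraries rich in satellite reads it was 2.63 (adjusted p = 0.0162), where the Myc-knockin tumors were again M624 and M664 alone. With scaling by library size alone the call was lost (log2 fold change 2.22, adjusted p = 0.166). The call was lost when F187, F325, F331 or F368 was left out (adjusted p = 0.0759, 0.114, 0.108 and 0.151), while the log2 fold change stayed between 1.60 and 2.26. Of all genes tested, 0.806%, 0.0124%, 0.00% and 0.00% were called higher in those fits. Beside these 2 calls, the summed level of 8 proliferation markers was 417 to 708 CPM in p53-driven and 502 to 1097 CPM in Myc-knockin tumors, with 1 of 8 called higher. Mki67 made up 30.2% to 48.3% of the sum. Of the 8, Ccnb1, Cdk1 and Aurka were higher in every Myc-knockin tumor, as were 5.41% of all genes tested, and 5 overlapped. Their median log2 fold change was 0.85, against 0.14 over all genes. The part of proliferation in the results was not tested.

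Mthfd1l (ENSMUSG00000040675, chr10:3973118-4167081), which releases formate from mitochondria, had 43.4, 36.2, 17.8 and 39.4 CPM in p53-driven tumors and 29.5, 76, 33.5, 65.6 and 67.5 CPM in M351, M408, M9, M624 and M664. The groups overlapped and the gene was not called (log2 fold change 0.69 ± 0.37, adjusted p = 0.262 by edgeR). Mthfd2 (ENSMUSG00000005667, chr6:83305691-83325908), the mitochondrial dehydrogenase and cyclohydrolase known for its level in embryos and tumors, had 57.7, 45.0, 31.5 and 34.8 CPM against 12.9, 31.9, 35.1, 85.6 and 53.7 CPM. M351 was the lowest and M624 the highest of all tumors, so that the Myc-knockin values spanned the p53-driven ones. The log2 fold change was 0.08 ± 0.45 (adjusted p = 0.936) over 9 tumors and -0.59 ± 0.38 (adjusted p = 0.339) over 7, and neither passed the test.

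Aldh1l2 (ENSMUSG00000020256, chr10:83487450-83534140), the mitochondrial formyl-tetrahydrofolate dehydrogenase, was the enzyme called lower. It had 79.0, 101, 205 and 313 CPM in F187, F325, F331 and F368, and 48.0, 13.0, 29.5, 5.33 and 30.5 CPM in M351, M408, M9, M624 and M664. Every Myc-knockin tumor lay below every p53-driven tumor, although the p53-driven tumors themselves differed widely. The mean was 175 ± 107 CPM (SD, n = 4) against 25.3 ± 16.7 CPM (SD, n = 5), and the log2 fold change was -2.82 ± 0.61 (SE, adjusted p = 0.0320 by edgeR). Over the 7 tumors without M624 and M664 it was -2.51 ± 0.60 and missed the threshold (adjusted p = 0.0509). The call was also lost when F325, F331 or F368 was left out (adjusted p = 0.0813, 0.107 and 0.120), with log2 fold changes from -3.18 to -2.42 over the 9 fits. Of all genes tested, 6 were called lower without F325, 6 without F331 and 5 without F368. Aldh1l2 shares 1056 of its 7503 exon bases with D10Wsu102e on the opposite strand, which had 152 to 663 reads in p53-driven and 176 to 1395 reads in Myc-knockin tumors.

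In the Myc-knockin tumors, where Aldh1l2 was lower, the summed levels of several marker lists were lower as well. The 8 osteoblast markers, whose ranges are given above, included 1 called lower. Col1a1 made up 51.8% to 95.3% of their sum, and Runx2, Col1a1 and Bglap were lower in every Myc-knockin tumor than in every p53-driven tumor, while Sp7, Alpl, Ibsp and Spp1 overlapped between the groups. The 6 osteoclast markers summed to 2580 to 13514 CPM in p53-driven and 114 to 2544 CPM in Myc-knockin tumors, with 4 called lower and Dcstamp at 0 in M408. The 8 leukocyte and macrophage markers summed to 770.2 to 1451 CPM and 238 to 629.9 CPM, with 3 called lower and none at 0. Ptprc, Cd68, Csf1r and Tyrobp were lower in every Myc-knockin tumor, while Adgre1, Itgam, Cd14 and Lyz2 overlapped between the groups. Cd14 had 3.16 to 6.32 CPM in p53-driven tumors and 6.16, 21.6, 3.98, 8.65 and 13.5 CPM in M351, M408, M9, M624 and M664. The 5 endothelial markers summed to 316 to 446 CPM and 75.7 to 395 CPM, with 0 called by edgeR. The part of these cells in the level of Aldh1l2 was not tested, and in whole tumors fewer cells of a type and less RNA per cell cannot be told apart. Atf4, whose protein is known to drive several of these enzymes, had 157 to 219 CPM in p53-driven and 72.6 to 170.0 CPM in Myc-knockin tumors (log2 fold change -0.83 ± 0.30, adjusted p = 0.109 by edgeR).

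Gldc (ENSMUSG00000024827, chr19:30098447-30175429), which encodes the decarboxylase of the glycine cleavage system, was near the limit of detection in p53-driven tumors. Its counts were 10, 3, 5 and 2 reads in F187, F325, F331 and F368, and 38, 22, 8, 142 and 228 reads in M351, M408, M9, M624 and M664. These were 3.95, 0.233, 0.432 and 0.243 CPM, and 23.4, 4.03, 6.37, 5.41 and 9.84 CPM, so that the groups were separated by the small gap between F187 and M408. Of the 10 reads in F187, 4.30 were expected from genomic background, and of the 8 reads in M9, 7.49. After subtraction M9 had 0.407 CPM and F187 2.25 CPM, and the groups overlapped. Gldc was not called (log2 fold change 3.30 ± 0.99, adjusted p = 0.0707 by edgeR, and 3.58 ± 1.13, adjusted p = 0.0941, without M624 and M664). It passed the threshold when F187 was left out (log2 fold change 4.90, adjusted p = 0.0282). The 5 liver markers, of a tissue known for Gldc, had at most 19 reads in any library and summed to at most 4.74 CPM in p53-driven and 19.1 CPM in Myc-knockin tumors.

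Levels between genes can be compared only per kilobase of exon. Among p53-driven tumors the order of the mean CPM per kilobase was Aldh1l2 (23.3 ± 14.3, SD, n = 4), Psat1 (17 ± 5.42), Shmt2 (12.5 ± 3.21), Mthfd2 (12.1 ± 3.38), Mthfd1l (7.72 ± 2.55), Phgdh (4.96 ± 1.32), Mthfd1 (4.39 ± 0.91), Psph (2.22 ± 0.44), Shmt1 (1.24 ± 0.24) and Gldc (0.199 ± 0.30). From Aldh1l2 down to Mthfd1 each gene's range overlapped that of the next, and the ranges of Mthfd1, Psph and Shmt1 did not overlap those of the genes below them. Among Myc-knockin tumors the order was Shmt2 (62.2 ± 78.8, SD, n = 5), Phgdh (32.0 ± 37.1), Psat1 (26.9 ± 10.5), Mthfd1 (18.3 ± 13.1), Shmt1 (16.5 ± 12.8), Mthfd2 (12.6 ± 7.87), Mthfd1l (12.3 ± 4.81), Psph (3.40 ± 1.18), Aldh1l2 (3.37 ± 2.22) and Gldc (1.61 ± 1.30). Only the step from Mthfd1l to Psph separated neighbours there. Shmt2 and Phgdh were first and second in M624 (198 and 85.3) and M664 (64.5 and 56.7) alone. In M351, M408 and M9, Psat1 lay above Shmt2 (23.6 against 19.8, 29.9 against 20.5 and 12.4 against 8.46). Phgdh had 5.94, 4.42 and 7.37 CPM per kilobase in those tumors. Phgdh is placed by its own reads alone, although its pseudogenes drew 2.07 to 2.82 times as many reads in p53-driven tumors, so its place in both orders is uncertain. By these means Aldh1l2 was the first of the 10 transcripts in p53-driven tumors and the ninth in Myc-knockin tumors, while Shmt1 was the ninth and the fifth. Aldh1l2 was first in F331 and F368 but lay below Psat1 in F187 (10.5 against 20.7 CPM per kilobase) and F325 (13.5 against 14.0). The genes lie on 7 chromosomes, with Shmt2, Mthfd1l and Aldh1l2 on chromosome 10 and Psat1 and Gldc on chromosome 19.

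The balance of mitochondrial to cytosolic transcripts was compared within each tumor, where the scaling between libraries has no part. The ratio of Shmt2 to Shmt1, in counts per kilobase, was 8.42, 9.80, 9.46 and 11.9 in the p53-driven tumors and 1.86, 1.44, 1.71, 5.15 and 4.50 in M351, M408, M9, M624 and M664. Shmt2 was the more abundant transcript in all 9 tumors, and by less in each Myc-knockin tumor. The mean log2 ratio was 3.30 ± 0.21 (SD, n = 4) in p53-driven and 1.35 ± 0.86 (SD, n = 5) in Myc-knockin tumors, a difference of -1.95 (two-sided exact permutation test, p = 0.0159, adjusted p = 0.0317 over 4 ratios). The smallest p that the 126 arrangements allow is 0.0159. The difference was -2.57 without M624 and M664, where the smallest possible p is 0.0571 and was reached. It was -1.10 without the 4 satellite-rich libraries, over 3 p53-driven tumors and, of the Myc-knockin group, M624 and M664 alone (exact permutation test, p = 0.2, the smallest possible).

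The ratio of Mthfd2 to Mthfd1 was 3.70, 3.11, 1.62 and 2.93 in p53-driven tumors and 0.324, 0.514, 1.27, 0.602 and 1.17 in M351, M408, M9, M624 and M664. Mthfd2 exceeded Mthfd1 in all 4 p53-driven tumors, and in M9 and M664 alone of the Myc-knockin tumors. The difference in the mean log2 ratio was -1.99, from 1.44 ± 0.52 (SD, n = 4) to -0.55 ± 0.83 (SD, n = 5; exact permutation test, p = 0.0159, adjusted p = 0.0317), and -2.19 without M624 and M664, again at the smallest p of 0.0571. Without the satellite-rich libraries it was -1.55. For Mthfd1l to Mthfd1 the log2 ratio went from 0.75 ± 0.84 (SD, n = 4) to -0.43 ± 0.69 (SD, n = 5), and the groups overlapped through F331 (exact permutation test, p = 0.0635, adjusted p = 0.0847). For Aldh1l2 to Aldh1l1, its cytosolic counterpart, it went from 5.22 ± 1.81 (SD, n = 4) to 2.76 ± 1.57 (SD, n = 5), with overlap through M664 (exact permutation test, p = 0.0952, adjusted p = 0.0952), and Aldh1l1 had only 6 to 40 reads. Both ratios to Mthfd1 use the same Mthfd1 counts, and are not independent of each other. Each of the 4 ratios uses the counts of Shmt1, Mthfd1 or Aldh1l2, and so is not independent of the calls above.

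**Figure D4:**
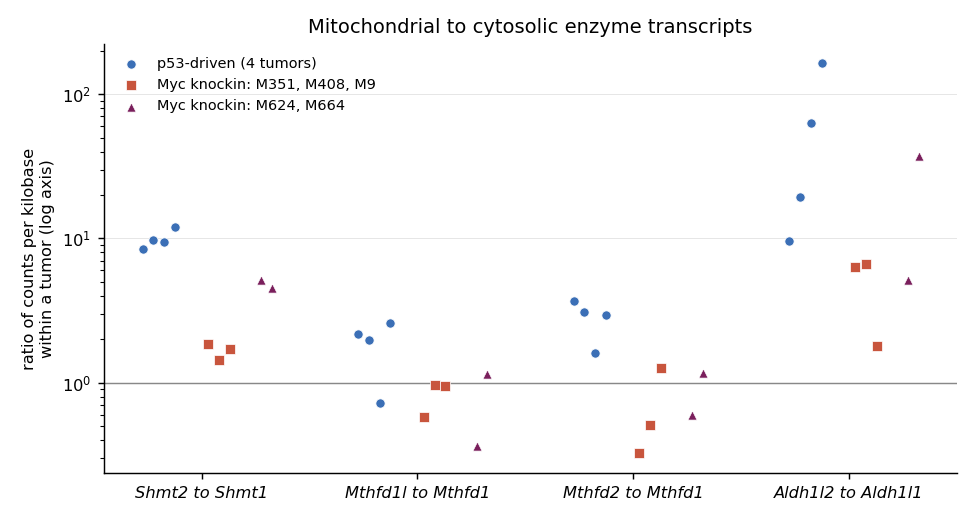
Ratio of mitochondrial to cytosolic transcripts in counts per kilobase within each tumor (log axis, 1 point per tumor, line at a ratio of 1), with separate symbols for M624 and M664. The groups do not overlap for Shmt2 to Shmt1 (8.42 to 11.9 in p53-driven, 1.44 to 5.15 in Myc-knockin tumors) and Mthfd2 to Mthfd1, and overlap for the other pairs.

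The following genes, which act at the same steps as the enzymes above, were not called. Mthfd2l, the paralog of Mthfd2, had 11.0 to 17.8 CPM in p53-driven and 10.3 to 24.5 CPM in Myc-knockin tumors (log2 fold change 0.15 ± 0.34, adjusted p = 0.811 by edgeR). For Aldh1l1 the log2 fold change was 0.10 ± 0.97 (adjusted p = 0.963). Of the partners of Gldc in glycine cleavage, Gcsh, the hydrogen carrier, had 14.3 to 22.1 CPM against 20.3 to 91.7 CPM (log2 fold change 1.51 ± 0.47, adjusted p = 0.0757). M624 (91.7 CPM) and M664 (75.8 CPM) were the highest for Gcsh. Without these tumors its log2 fold change was 0.67 ± 0.29 (adjusted p = 0.192 by edgeR). Amt had 3 to 16 reads in p53-driven tumors and a log2 fold change of 0.99 ± 0.70 (adjusted p = 0.392), and Dld, shared with the pyruvate dehydrogenase complex, had -0.26 ± 0.31 (adjusted p = 0.631). Tyms, which spends a folate carbon on thymidylate, had 11.4 to 21.5 CPM against 22.8 to 42.9 CPM, without overlap (log2 fold change 0.97 ± 0.31, adjusted p = 0.0835).

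Of 45 other genes of the pathway, those just named included, 33 were tested, and 3 were called higher and 3 lower, where 2.26% and 3.00% of all genes tested were called. Their median log2 fold change was 0.31. Over the 7 tumors without M624 and M664, 2 of them were called higher (Slc19a1 and Ahcy) and 0 lower, against 1.80% and 2.81% of all genes. By group, 1 was called higher and 1 lower of 13 other folate genes tested, 1 higher and 1 lower of 7 genes of the methionine cycle, 1 higher of 5 genes of transsulfuration and glutathione synthesis, 1 lower of 5 other genes of serine and glycine metabolism, and 0 of 3 partners in glycine cleavage.

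Ahcy, which hydrolyses S-adenosylhomocysteine in the methionine cycle, had 4.34, 3.97, 3.98 and 3.28 CPM in p53-driven tumors and 9.23, 14.3, 11.2, 49.6 and 33.7 CPM in M351, M408, M9, M624 and M664 (log2 fold change 2.63 ± 0.54, adjusted p = 0.0276 by edgeR). Slc19a1, the reduced folate carrier of the plasma membrane, had 7.90, 7.54, 9.69 and 11.7 CPM against 29.5, 33.2, 13.5, 37.0 and 122 CPM (log2 fold change 2.37 ± 0.57, adjusted p = 0.0405). Both were higher in every Myc-knockin tumor, and both kept their call without M624 and M664 (log2 fold change 1.65, adjusted p = 0.0394, and 1.55, adjusted p = 0.0431). Cth, which makes cysteine from cystathionine, had 4, 2, 2 and 1 reads in p53-driven tumors and 11, 25, 8, 524 and 63 reads in Myc-knockin tumors, so that its log2 fold change of 4.46 ± 0.99 (adjusted p = 0.0336) rests on few p53-driven reads, and it was not tested over 7 tumors.

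The 3 genes called lower included Slc25a32, the mitochondrial folate carrier, with 52.5, 73.4, 105 and 87.7 CPM in p53-driven tumors and 38.8, 34.2, 28.7, 40.0 and 25.7 CPM in M351, M408, M9, M624 and M664. Its groups did not overlap (log2 fold change -1.25 ± 0.27, adjusted p = 0.0312 by edgeR). Ahcyl1, a relative of Ahcy that binds the IP3 receptor, had 187.2 to 286 CPM against 114 to 133 CPM (log2 fold change -0.99 ± 0.25, adjusted p = 0.0445). Sardh, the mitochondrial sarcosine dehydrogenase, had 37.1 to 77.6 CPM against 9.53 to 35.1 CPM (log2 fold change -1.77 ± 0.42, adjusted p = 0.040). Without M624 and M664 none of these 3 passed (adjusted p = 0.0534, 0.0671 and 0.0931), with log2 fold changes of -1.17, -0.99 and -1.46. The summed levels of osteoblast, osteoclast and leukocyte markers given above were lower too, although some markers of each list overlapped between the groups. The part of these cells in the 3 genes was not tested.

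Each of these 6 genes lost its call in some of the fits that left out 1 tumor, while the log2 fold changes kept their direction, at 2.24 to 2.83 for Ahcy, 1.65 to 2.60 for Slc19a1, between 3.8 and 5.64 for Cth, -1.43 to -1.08 for Slc25a32, -1.10 to -0.94 for Ahcyl1 and -2.21 to -1.57 for Sardh. None of the 6 was called when F325, F331 or F368 was left out (adjusted p from 0.0912 to 0.165), and over all genes tested at most 2 were called higher and 6 lower in those 3 fits. Ahcy was also lost without F187 (0.0581), Slc25a32 without M351 (0.0511), Cth without M351 (0.0511) or M624 (0.0560), and Slc19a1 without F187 (0.0868), M351 (0.0528) or M624 (0.0510). Ahcyl1 and Sardh kept their call only without M9 (adjusted p = 0.0426 and 0.0155), and were lost without each of the other 8 tumors (adjusted p from 0.0528 to 0.165).

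**Figure D5:**
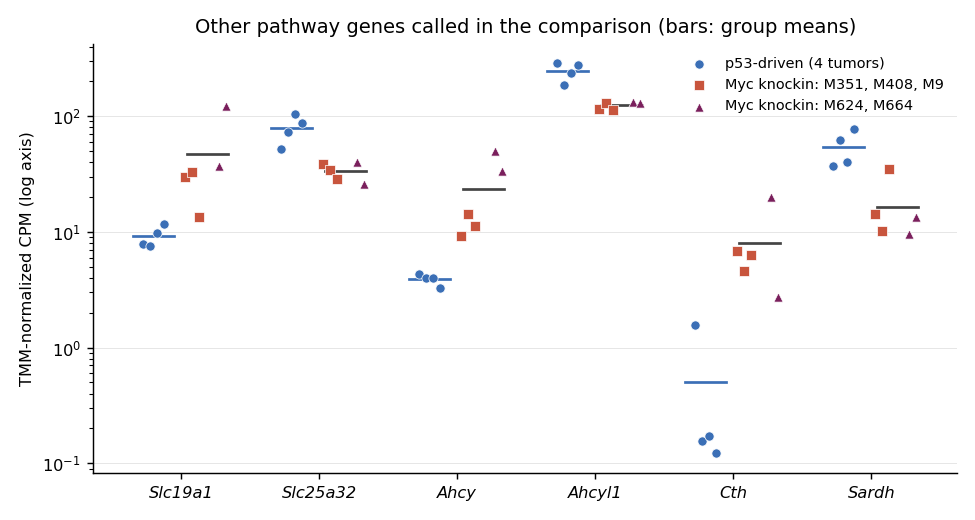
TMM-normalized CPM (log axis) of the 6 other pathway genes called over 9 tumors, 1 point per tumor, with a bar at each group's mean and separate symbols for M624 and M664. Slc19a1, Ahcy and Cth lie higher and Slc25a32, Ahcyl1 and Sardh lower in every Myc-knockin tumor than in every p53-driven tumor.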

How the data were processed

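Whole tumors from 4 p53-driven and 5 Myc-knockin mice were profiled by RNA-Seq. By the paper's methods, mRNA was captured on oligo-dT beads and stranded libraries were prepared. M624 and M664 nevertheless differed from the other libraries in Rn7sk and Hba-a1, as given above. The authors trimmed reads with Trim Galore, mapped them with STAR to mm10 and deposited raw counts per gene from featureCounts. The settings for strand and multimapped reads are not given in the sources used here. Columns were used as members of their group, since no label pairs 1 column with 1 numbered sample.

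Counts were tested in R 4.3.3 with edgeR 4.0.16 (glmQLFit and glmQLFTest, TMM, filterByExpr with a minimum count of 10, no covariates), with Benjamini-Hochberg adjustment over 15365 genes. DESeq2 1.42.0 and limma 3.58.1 (voom with quality weights) were alternatives, with other scalings, filters and sets of tumors. The fits were tested on simulated data. Isozyme ratios used counts per kilobase with 0.5 counts added, and two-sided exact permutation tests (scipy 1.17.1). Genomic background was estimated from the counts of 1536 chemosensory receptor genes per kilobase of exon. Gene positions and exons came from GENCODE on the same genome, which held 55034 of the 55367 gene identifiers, pseudogenes from BLAST 2.17.0 (at least 76 aligned bases and 90% identity), and upstream sequences from RefSeq (GRCm38.p6), with windows for 9 of the 10 enzymes.

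The named genes are the 10 enzymes, 6 genes of the same steps (a further gene is not reported here), each other pathway gene called, and Myc, Trp53 and Atf4. The enzymes and gene lists were chosen with earlier results of these data known. The p values of edgeR and DESeq2 set the difference between the groups against the spread among these tumors. The permutation p values set it against rearranged group labels. With 671790 to 17073254 counts outside the satellite genes, 3 counts corresponded to 0.114 to 2.39 CPM, and this covers counting error only.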

Additional observations from a re-analysis of the deposited data

Results flagged for a closer look

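Within each group, single tumors were compared with the rest by Dixon's criterion over 58 groups of values, of which chance alone marks about 1 in 20, and 6 values stood apart. Among the enzymes these were Shmt1 in M624 (149 CPM, where the rest of the Myc-knockin group had 19.1 to 55.6 CPM) and Gldc in F187 (3.95 CPM, where the rest of the p53-driven group had 0.233 to 0.432 CPM). F187 also stood above the other p53-driven tumors for Cth (1.58 CPM, against 0.122 to 0.173 CPM). M624 stood apart for Cth (20.0 CPM, against 2.72 to 6.77 CPM), M664 for Slc19a1 (122 CPM, against 13.5 to 37.0 CPM) and M9 for Sardh (35.1 CPM, against 9.53 to 14.2 CPM).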

How the results depend on the processing

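No paired analysis was possible because the columns of the table carry no replicate numbers. The number of enzymes called higher, 2 in the comparison as reported, was 1 with scaling by library size alone, 5 with DESeq2 and 5 without the 4 satellite-rich libraries, and the number called lower, 1 as reported, was 0 without M624 and M664. Over all genes, 0.325% were called higher and 0.560% lower with library size alone, 8.57% and 6.79% with DESeq2, 15.7% and 12.1% without the satellite-rich libraries, 8.46% and 5.72% where each tumor had 10 counts or more, 4.29% and 3.57% after background subtraction, 0.457% and 0.578% with all genes of at least 1 count, and 1.80% and 2.81% without M624 and M664. With 1 tumor left out at a time the numbers of enzymes ranged from 0 to 3 and from 0 to 1. In those fits 0.00% to 6.03% of all genes were called higher and 0.0292% to 4.34% lower. The fits with 0 enzymes called were those without F325, F331 or F368, where at most 2 of all genes were called higher and 6 lower. Of the other pathway genes, 3 as reported were called higher, and the number was 1 with library size alone, 7 with DESeq2, 7 with at least 10 counts in every tumor, 5 after background subtraction and 11 without the satellite-rich libraries. The number called lower, 3 as reported, was 0 with library size alone, 1 with all genes of at least 1 count and 0 without M624 and M664. With 1 tumor left out these ranged from 0 to 6 and from 0 to 3. The cause of these shifts was not tested.

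The difference in the log2 ratio of Shmt2 to Shmt1 was -2.57 without M624 and M664 and -1.10 without the satellite-rich libraries, and ranged from -2.21 to -1.75 with 1 tumor left out. For Mthfd2 to Mthfd1 it was -2.19, -1.55 and from -2.24 to -1.72. Without the pair or the 4 libraries, no adjusted p under the threshold was possible. Both ratios also missed the adjusted threshold in 7 of the 9 fits that left out 1 tumor (adjusted p = 0.0571 or 0.0714), where the smallest possible unadjusted p is 0.0286 or 0.0357. Mthfd1l to Mthfd1 ranged from -1.60 to -0.93 with 1 tumor left out and passed without F331, and Aldh1l2 to Aldh1l1 from -3.11 to -1.75 and passed without M664.

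Of the log2 fold changes, Mthfd2 turned below 0 in 5 alternatives, namely -0.69 with limma-voom, -0.59 without M624 and M664, -0.25 without M624, -0.028 without F331 and -0.017 without F368, and ranged from -0.25 to 0.30 with 1 tumor left out. Over the 10 enzymes and the 6 other genes called, 242 refitted values kept their direction and side of the threshold, 60 lost the threshold and 10 gained it. The 242 include values of genes not called that stayed so, such as Phgdh at 0.29 without M624 and M664. Only genes called as reported could lose the threshold, so all 60 fell on them. Shmt1 lost it in 3 fits that left out 1 tumor, and Ahcyl1 in 8 such fits and 5 other alternatives. Depth limits Gldc and Cth most, with at most 10 reads in any p53-driven tumor.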
